A study of Mus musculus with 16 samples.

Results

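The 10 genes described here are made by neutrophils and their precursors, and were measured in leukaemic cells sorted from mice kept on diets of different valine content. They were chosen by symbol with earlier results of these data known, among them their levels at 0 against 8 g/kg valine, and all 10 are found among the 12012 genes of the deposited table. Mpo, Elane, Prtn3 and Ctsg are the 4 early genes, and Camp, Ngp, Ltf, Lyz2, S100a8 and S100a9 are the 6 late ones.

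Neutrophils fill their granules in stages as they mature in bone marrow. Promyelocytes make the azurophil granules, which hold myeloperoxidase and serine proteases, and myelocytes and metamyelocytes then make the specific and gelatinase granules with lactoferrin, cathelicidin and gelatinase. Transcription of the early genes stops as the cells mature, so that ripe neutrophils carry the early proteins with little of their mRNA. S100a8 and S100a9 encode calcium-binding proteins of the cytosol rather than of granules, and Lyz2 encodes a lysozyme that macrophages also make.

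The mice, of strain C57BL/6, were secondary recipients of a leukaemia of immature T cells, T-ALL for short, that a constantly active Notch receptor (NOTCH-ΔE) drives. For 3 weeks they had a diet without valine (0 g/kg), the same diet with valine added back at 0.4 or 0.8, or the control diet with 8 g/kg. These doses follow the sample characteristics, while the treatment protocol speaks of valine in drinking water. All groups share the leukaemia, the strain and the tissue, and the cells were sorted from spleen on GFP. RNA was sequenced as ribosome-protected fragments (RPF), the pieces of mRNA that survive nuclease digestion under a ribosome, and as total RNA, with 2 libraries per diet and fraction, labelled T-ALL 3 and T-ALL 2, or 16 in all. The labels do not say whether these numbers mark tumours or recipient mice, so tests and standard deviations (SD) measure only the spread between these libraries. In bulk samples such as these, fewer cells of a type and less RNA per cell cannot be told apart.

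Reads recovered from the deposited values numbered 41848 to 205545 in the RPF libraries and 364685 to 1269364 in those of total RNA. The libraries carried the labelled cell type: 14 T cell genes made up 34.7 to 51.7 of every 10000 RPF reads and 38.6 to 56.3 of every 10000 total RNA reads. Against that, the 10 neutrophil genes had 269 reads in all 8 RPF libraries together and 554 in the 8 total RNA libraries. All 10 passed the filter of a mean of 1 FPKM, a read count divided by gene length and library size, in both fractions. In total RNA 5 of them, Mpo, Prtn3, Ctsg, Camp and Ltf, passed only through the 0 g/kg libraries.

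The genes lie on chromosomes 3, 9, 10, 11 and 14 (GRCm38.p6), in part side by side. Prtn3 (chr10:79879667-79883174) ends 3137 bases before Elane (chr10:79886312-79888216), and S100a8 (chr3:90669071-90670034) ends 22595 bases before S100a9 (chr3:90692630-90695721). Camp (chr9:109847377-109849456), Ngp (chr9:110419808-110423012) and Ltf (chr9:111019292-111042766) share chromosome 9. Lyz2 (chr10:117277541-117282272), Mpo (chr11:87793784-87804412) and Ctsg (chr14:56099885-56102574) stand apart from the others.

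Promoters of both neighbouring pairs and of Ngp are shown because these genes were high in the same libraries. Each sequence is the 250 bases before the RefSeq gene start on the gene's own strand (GRCm38.p6), and capitals mark matches, on either strand, to GAGGAA, the core bound by PU.1, or to TTNNGNAA, the core bound by C/EBP factors. PU.1 and C/EBP factors are the main transcription factors of granulocyte development.
Prtn3, chr10:79879417-79879666, plus strand: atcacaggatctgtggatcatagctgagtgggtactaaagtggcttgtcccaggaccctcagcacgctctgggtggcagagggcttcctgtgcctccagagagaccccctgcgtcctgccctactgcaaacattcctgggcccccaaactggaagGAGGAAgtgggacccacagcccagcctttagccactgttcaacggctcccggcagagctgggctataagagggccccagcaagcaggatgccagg
Elane, chr10:79886062-79886311, plus strand: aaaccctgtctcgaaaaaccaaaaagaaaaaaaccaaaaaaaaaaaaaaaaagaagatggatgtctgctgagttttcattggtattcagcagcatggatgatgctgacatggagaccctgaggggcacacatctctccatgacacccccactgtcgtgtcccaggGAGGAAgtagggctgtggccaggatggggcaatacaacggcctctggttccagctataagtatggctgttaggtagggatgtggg
Ngp, chr9:110419558-110419807, plus strand: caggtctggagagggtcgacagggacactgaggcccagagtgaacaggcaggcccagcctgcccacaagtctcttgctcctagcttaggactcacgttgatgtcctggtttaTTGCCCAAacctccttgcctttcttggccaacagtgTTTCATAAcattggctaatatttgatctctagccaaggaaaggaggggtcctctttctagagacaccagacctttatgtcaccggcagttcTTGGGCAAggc
S100a8, chr3:90668821-90669070, plus strand: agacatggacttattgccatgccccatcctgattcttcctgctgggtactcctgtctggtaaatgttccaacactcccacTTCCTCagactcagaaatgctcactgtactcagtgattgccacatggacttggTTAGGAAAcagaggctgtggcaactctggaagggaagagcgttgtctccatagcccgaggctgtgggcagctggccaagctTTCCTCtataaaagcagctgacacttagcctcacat
S100a9, chr3:90695722-90695971, minus strand: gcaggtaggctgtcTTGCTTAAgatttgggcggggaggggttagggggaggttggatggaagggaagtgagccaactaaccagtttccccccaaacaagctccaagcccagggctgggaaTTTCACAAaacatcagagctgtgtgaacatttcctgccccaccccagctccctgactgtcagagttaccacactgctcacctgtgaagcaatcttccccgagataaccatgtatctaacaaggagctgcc

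GAGGAA was found in these 250 bases for all 4 early genes and for 2 late ones, Ltf and S100a8, or 6 of 10, against 23.3% of 32851 mouse promoters of the same length. TTNNGNAA was found for 0 of the 4 early genes and for 5 late ones, Ngp, Ltf, Lyz2, S100a8 and S100a9, against 36.8% of all promoters. The Prtn3 and Elane matches to GAGGAA begin 95 and 85 bases before the gene start. TGTGGT, the core bound by RUNX factors, was found for 3 members (Ctsg, Lyz2 and S100a9) against 14.0% of promoters. TATAAA, the core of the TATA box, was found for Ctsg and S100a8, against 12.4%. The S100a8 match lies 30 bases before the gene start, and that of Ctsg 237 bases before it and on the opposite strand. Only this spelling was searched, and the printed Prtn3 and Elane sequences hold TATAAG near their ends. The matches describe the sequence alone.

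At 0 g/kg valine the 10 genes together were more abundant than in any other library of the same fraction. In RPF they took 3.16 and 26.5 of every 10000 reads at 0 g/kg in T-ALL 3 and T-ALL 2, 1.20 and 0.427 at 0.4 g/kg, 0.608 and 0.341 at 0.8 g/kg, and 0.420 and 0.239 at 8 g/kg. In total RNA the values in the same order were 2.10 and 4.47 at 0 g/kg, 0.710 and 0.323 at 0.4 g/kg, 0.110 and 0.273 at 0.8 g/kg, and 0.130 and 0.165 at 8 g/kg. The 0 g/kg libraries held 20.1% of all RPF reads and 88.5% of the members' RPF reads, and 17.8% of all total RNA reads and 73.1% of the members' total RNA reads. Since 0 against 8 g/kg was known when the genes were chosen, these values are a description and carry no test.

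**Figure D1:**
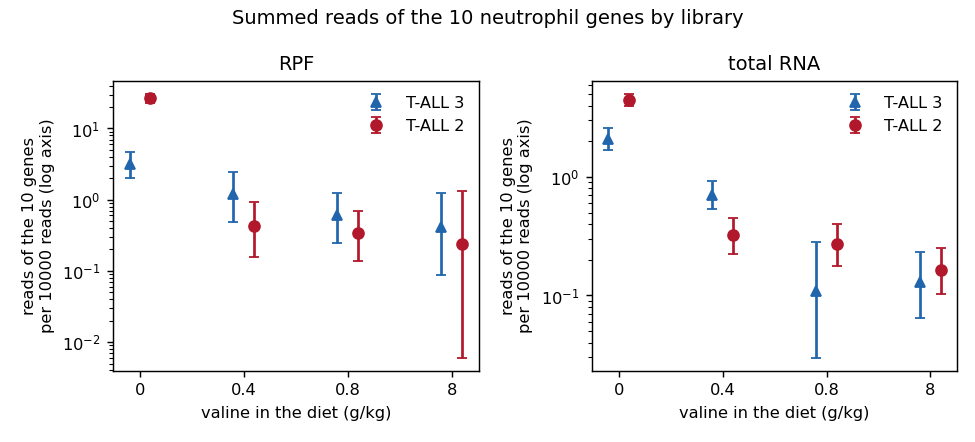
Reads of the 10 neutrophil genes per 10000 reads of the library (log axis) against valine in the diet (g/kg), for RPF on the left and total RNA on the right, with triangles for T-ALL 3, circles for T-ALL 2 and bars for 95% exact Poisson intervals. Both libraries at 0 g/kg lie above the other 6 in each panel, and in total RNA both libraries at 0.4 g/kg lie above those at 0.8 and 8 g/kg.

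The order of the diets was only partly settled. The total RNA libraries at 0.4 g/kg, from 0.323 to 0.710 per 10000, lay below those at 0 g/kg and above those at 0.8 g/kg (0.110 to 0.273) and 8 g/kg (0.130 to 0.165), while the ranges at 0.8 and 8 g/kg overlapped. In RPF 0 g/kg stood apart from the rest, the lower 0.4 g/kg library (0.427) lay just above the higher control (0.420), and the ranges at 0.8 g/kg overlapped those at 0.4 and 8 g/kg. With both libraries of a diet pooled, the members' share of RPF reads was 42.3 times that of the controls at 0 g/kg (95% interval 16.3 to 156), 1.85 times for 0.4 g/kg (0.571 to 7.78) and 1.24 times for 0.8 g/kg (0.388 to 5.16). For total RNA it was 23.6 times that of the controls at 0 g/kg (16.5 to 35.0), 3.18 times for 0.4 g/kg (2.10 to 4.93) and 1.497 times for 0.8 g/kg (0.874 to 2.55). The ratios at 0 g/kg rest largely on T-ALL 2: with the T-ALL 3 library alone for that diet they were 8.94 in RPF (3.09 to 35.4) and 13.9 in total RNA (9.19 to 21.5), both below the pooled intervals. These intervals, and all others given here for reads, cover counting error only, and the 3 comparisons share the same controls.

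Mpo, the myeloperoxidase that makes hypochlorous acid in the azurophil granule, led the early genes by reads. In RPF it had 8.04 and 254 FPKM at 0 g/kg in T-ALL 3 and T-ALL 2, 0 and 10.2 at 0.4 g/kg, 6.11 and 6.93 at 0.8 g/kg, and 0 in both controls. Its total RNA values were 3.51 and 28.1 FPKM at 0 g/kg, 2.13 and 0.371 at 0.4 g/kg, 1.11 and 1.29 at 0.8 g/kg, and 0 in both controls. Both 0 g/kg libraries stood above all 6 others in total RNA, whereas in RPF the T-ALL 3 library at 0 g/kg, with 2 reads, lay below the T-ALL 2 library at 0.4 g/kg, with 4. Both libraries of a diet were then pooled, with 3 reads over both controls as the limit that a count of 0 allows. On that basis Mpo was at least 15.4-fold higher in RPF and at least 33.6-fold higher in total RNA at 0 g/kg. Both bounds rest largely on T-ALL 2, which held 63 of the 65 RPF reads and 50 of the 54 total RNA reads.

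Elane, the neutrophil elastase, had 12.02 and 181 FPKM in RPF at 0 g/kg in T-ALL 3 and T-ALL 2, 32.9 and 0 at 0.4 g/kg, and 0 in all 4 libraries at 0.8 and 8 g/kg. Total RNA gave 18.3 and 28.5 FPKM at 0 g/kg, 4.78 and 0 at 0.4 g/kg, 0 and 1.29 at 0.8 g/kg, and 1.41 and 0 at 8 g/kg. Elane was thus above every other library at 0 g/kg in total RNA but not in RPF, where 2 reads in T-ALL 3 at 0.4 g/kg gave 32.9 FPKM. Its neighbour Prtn3, the related protease proteinase 3, had 7.06 and 24.1 FPKM in total RNA at 0 g/kg and from 0 to 2.86 FPKM in the other 6 libraries. Prtn3 had 3 RPF reads in all, 2 of them in T-ALL 2 at 0 g/kg.

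Ctsg, the protease cathepsin G, had more reads in RPF than in total RNA at 0 g/kg. It had 1 and 14 RPF reads at 0 g/kg in T-ALL 3 and T-ALL 2, 1 and 0 at 0.4 g/kg, and 0 in the other 4 libraries. Its total RNA reads were 0 and 5 for 0 g/kg, 1 and 0 for 0.4 g/kg, 0 in both libraries for 0.8 g/kg, and 0 and 1 for 8 g/kg. It was the only member whose total RNA libraries at 0 g/kg overlapped the others.

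Among the late genes S100a9 had the highest FPKM at 0 g/kg in both total RNA libraries and in RPF of T-ALL 2, whereas S100a8 led in RPF of T-ALL 3. In RPF it had 107 and 1091 FPKM at 0 g/kg in T-ALL 3 and T-ALL 2, 0 and 13.5 at 0.4 g/kg, 0 and 9.19 at 0.8 g/kg, and 0 in both controls. Total RNA gave 135 and 286 FPKM at 0 g/kg, 28.2 and 17.7 at 0.4 g/kg, 0 and 27.4 at 0.8 g/kg, and 22.5 and 13.5 at 8 g/kg. It was therefore present in both control total RNA libraries, with 9 and 8 reads, and its level at 0.4 g/kg overlapped the controls. In RPF, with both libraries pooled, it was at least 13.3-fold higher at 0 than at 8 g/kg. That bound rests largely on T-ALL 2, which held 51 of its 56 RPF reads at 0 g/kg. In total RNA its mean was 210 ± 107 FPKM at 0 g/kg against 18.0 ± 6.35 at 8 g/kg (SD, n = 2 each), 11.7 times higher.

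S100a8, whose protein pairs with that of S100a9 as calprotectin, had 200 and 713 FPKM in RPF at 0 g/kg in T-ALL 3 and T-ALL 2. The other RPF libraries held 30.4 and 0 at 0.4 g/kg, 0 and 9.57 at 0.8 g/kg, and 49.6 and 0 at 8 g/kg, so both libraries at 0 g/kg were higher than all others. The total RNA values were 67.8 and 140 FPKM at 0 g/kg, 26.5 and 6.15 at 0.4 g/kg, 6.11 and 14.3 at 0.8 g/kg, and 2.60 and 5.27 at 8 g/kg. Every low-valine library was above both controls in total RNA by FPKM, and the ranges at 0.4 and 0.8 g/kg overlapped. The lowest libraries at 0.4 and 0.8 g/kg held 3 and 1 reads, against 1 and 3 in the T-ALL 3 and T-ALL 2 controls. The means at 0 and 8 g/kg were 104 ± 50.8 and 3.93 ± 1.89 FPKM in total RNA (SD, n = 2 each), a fold of 26.3.

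Ngp, the neutrophilic granule protein of mouse specific granules, had 18.1 and 109 FPKM in RPF at 0 g/kg in T-ALL 3 and T-ALL 2, 24.8 and 5.73 at 0.4 g/kg, 6.87 and 0 at 0.8 g/kg, and 0 in both controls. Its total RNA values were 23.7 and 55.6 FPKM at 0 g/kg and 20.4 and 3.34 at 0.4 g/kg, while both libraries at 0.8 g/kg had 0 and those at 8 g/kg had 0 and 2.15. The T-ALL 3 library at 0.4 g/kg, with 17 total RNA reads, came close to the T-ALL 3 library at 0 g/kg, which had 12 reads in a smaller total. Ngp was the only member for which both libraries at 0.4 g/kg stood above both controls in each fraction.

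By FPKM Lyz2 was graded over the diets in total RNA. It had 11.4 and 9.76 FPKM at 0 g/kg in T-ALL 3 and T-ALL 2, 5.78 and 6.45 at 0.4 g/kg, 2.40 and 1.87 at 0.8 g/kg, and 0 and 1.38 at 8 g/kg. Each diet lay apart from the next, which held for 1 of 10 members and for 6 of 10054 genes tested (0.0597%). This order includes 0 against 8 g/kg, known when the genes were chosen, so nothing is read from that share. Its last step was 1 and 2 reads at 0.8 g/kg in T-ALL 3 and T-ALL 2, against 0 and 2 at 8 g/kg. The levels rest on 32 reads, 6 and 8 of them at 0 g/kg, and in RPF, with 10 reads, only 0 g/kg stood apart (0.0823% of 9718 genes had all diets apart), at 26.2 and 43.8 FPKM against 0 to 11.96 FPKM in the other 6 libraries.

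Camp, the cathelicidin antimicrobial peptide, and Ltf, the iron-binding lactoferrin, are both cargo of specific granules. Camp had 15.9 and 16.3 FPKM in total RNA at 0 g/kg in T-ALL 3 and T-ALL 2, and from 0 to 2.70 FPKM in the other 6 libraries. In RPF its 8 reads were 0 and 7 at 0 g/kg and 1 in the T-ALL 2 control. Ltf had 8.79 and 14.6 FPKM in total RNA at 0 g/kg and 1.07 and 2.61 at 0.4 g/kg. At 0.8 g/kg it had 1.11 and 0.432 FPKM, against 0 and 0.319 at 8 g/kg. Each low-valine diet thus stood above the controls by FPKM, but at 0.8 g/kg each library held only 1 read. The T-ALL 2 control also held 1 read, in a larger library. The RPF values of Ltf were 8.06 and 48.6 FPKM at 0 g/kg and 0 to 9.18 FPKM in the other 6 libraries.

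**Figure D2:**
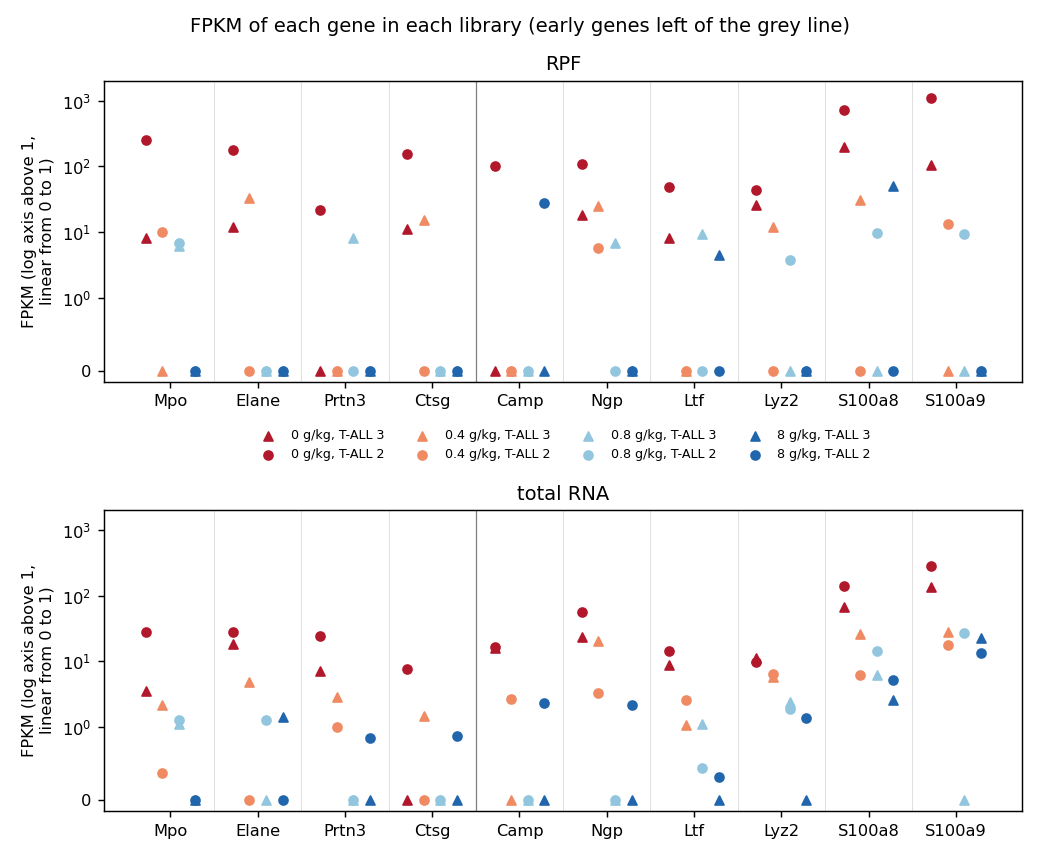
FPKM of each of the 10 genes in every library (log axis above 1, linear from 0 to 1), RPF above and total RNA below, with colours from 0 to 8 g/kg valine in the order of the legend and triangles for T-ALL 3, circles for T-ALL 2. In total RNA both symbols at 0 g/kg top their gene's other symbols for all genes but Ctsg, whereas in RPF the T-ALL 3 triangle at 0 g/kg often lies among the other diets.

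Over the 10 genes, both RPF libraries at 0 g/kg exceeded the other 6 for 3 members, Lyz2, S100a8 and S100a9, against 3.73% of the 9718 genes tested. Taken singly, the T-ALL 3 library at 0 g/kg exceeded the other 6 in RPF for 3 of 10 (15.1% of all genes) and the T-ALL 2 library for 10 of 10 (15.2%). In total RNA both 0 g/kg libraries exceeded the other 6 for 9 of 10 members, against 4.73% of 10054 genes. Taken singly in total RNA, T-ALL 3 did so for 9 (18.2%) and T-ALL 2 for 10 (16.4%). Both RPF libraries exceeded both controls for 8 members at 0 g/kg (16.7% of all genes), for 1 at 0.4 (15.9%) and for 1 at 0.8 g/kg (21.5%). The total RNA counts were 9 at 0 g/kg (16.1%), 6 at 0.4 (18.4%) and 4 at 0.8 g/kg (13.8%). Nothing is read from these counts for 0 against 8 g/kg, since that contrast was known when the genes were chosen.

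On the scale of log2(FPKM + 0.5), the members' median change against 8 g/kg in RPF was 6.32 for 0 g/kg, 2.26 for 0.4 g/kg and 1.01 for 0.8 g/kg, where the median over all genes tested was 0.12, 0.08 and 0.30. In total RNA it was 4.13, 1.52 and -0.38 at the same diets, against -0.04, -0.01 and -0.03 over all genes. For the early genes alone the medians were 6.47, 2.35 and 1.03 in RPF and 4.24, 1.09 and -0.38 in total RNA. For the late genes they were 6.17, 0.99 and 1.01 in RPF and 4.01, 1.72 and -0.13 in total RNA. In RPF the members had 4 reads in both controls together, so the size of all these medians depends on the added 0.5, also at 0 g/kg. At 0.4 and 0.8 g/kg the RPF medians rest on few reads in the low-valine libraries as well. Pooled by reads, the late genes' RPF share at 0.4 g/kg was 0.853 times that of the controls (6 and 4 reads, 0.202 to 4.11). At 0.8 g/kg it was 0.618 times (7 and 4 reads, 0.157 to 2.88). The negative total RNA medians at 0.8 g/kg also rest on few reads and on the added 0.5. Pooled by total RNA reads, all members had 1.497 times the control share at 0.8 g/kg (29 and 32 reads, 0.874 to 2.55). The early genes had 2.75 times (5 and 3 reads, 0.536 to 17.7) and the late genes 1.37 times (24 and 29 reads, 0.762 to 2.43). Those medians are therefore not read as lower levels. The difference between early and late genes was not tested.

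By reads, the early share differed between the T-ALLs at 0 g/kg, and between the fractions in T-ALL 2. At 0 g/kg the early genes gave 16% of the members' RPF reads in T-ALL 3 (4 of 25, 95% exact binomial interval 4.54 to 36.1%) and 44.1% in T-ALL 2 (94 of 213, 37.4 to 51.1%). In total RNA at 0 g/kg they gave 15.6% in T-ALL 3 (14 of 90, 8.77 to 24.7%) and 27.9% in T-ALL 2 (88 of 315, 23.1 to 33.2%). The T-ALL 2 library at 0 g/kg therefore had the higher early share in both fractions, with intervals that did not overlap in RPF.

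Outside 0 g/kg too few reads remained for a share in single libraries, which held 1 to 7 member reads in RPF and 4 to 53 in total RNA. Pooled over the 6 libraries at 0.4, 0.8 and 8 g/kg, the early share was 45.2% in RPF (14 of 31, 27.3 to 64.0%), against 41.2% at 0 g/kg (98 of 238, 34.9 to 47.7%). In total RNA it was 25.2% at 0 g/kg (102 of 405, 21.0 to 29.7%) and 13.4% over the other diets (20 of 149, 8.40 to 19.97%). Mpo alone supplied 8% and 29.6% of the members' RPF reads at 0 g/kg in T-ALL 3 and T-ALL 2, and 4.44% and 15.9% of their total RNA reads. S100a9 supplied 20% and 23.9% of the RPF reads and 32.2% and 30.5% of the total RNA reads.

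**Figure D3:**
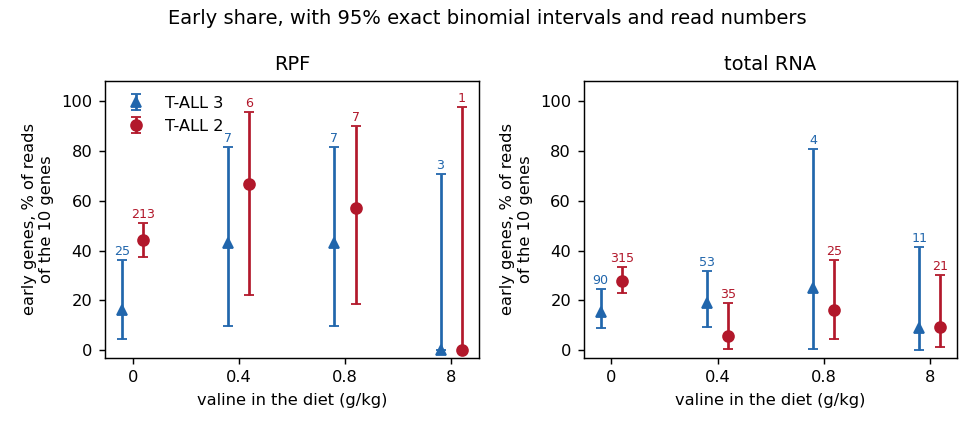
Share of the 4 early genes in all reads of the 10 genes (%) against valine in the diet (g/kg), for RPF on the left and total RNA on the right, with triangles for T-ALL 3, circles for T-ALL 2, bars for 95% exact binomial intervals and the number of reads printed above each. At 0 g/kg the T-ALL 2 share lies above the T-ALL 3 share in both panels, and the intervals of the other diets are wide.

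Footprints per transcript, taken as a gene's share of RPF reads over its share of total RNA reads in the same diet and T-ALL, differed between the T-ALL 3 and T-ALL 2 libraries at 0 g/kg. In T-ALL 2 the 10 genes together had a ratio of 5.93 (95% exact interval 4.96 to 7.08), where the median of 7595 genes with at least 10 total RNA reads was 0.929. In T-ALL 3 the ratio was 1.503 (0.924 to 2.36), where the median of 6485 genes was 0.941. The early genes had 9.37 (6.93 to 12.7) and the late genes 4.60 (3.65 to 5.76) in T-ALL 2, and 1.55 (0.371 to 4.92) and 1.495 (0.876 to 2.45) in T-ALL 3.

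In T-ALL 2 at 0 g/kg, Mpo had a ratio of 11.0 (7.502 to 16.4), higher than 99.99% of the 7595 genes. Elane had 7.74 (3.598 to 16.5) and S100a8 6.24 (3.84 to 10.03), higher than 99.9% and 99.7% of them. Prtn3, which lies beside Elane, had 1.10 (0.122 to 4.66), above 57.1% of the genes. In T-ALL 3 the ratio of S100a8 was 3.48 (1.33 to 8.63), above 98.4% of 6485 genes, and that of S100a9 was 0.933 (0.282 to 2.44), above 49.5%. Ctsg had the highest ratio of the members in T-ALL 2, 24.6 (8.36 to 87.1), from 14 RPF and 5 total RNA reads. In the same pair macrophage and monocyte genes took 3.24 of 10000 RPF reads and 0.326 of 10000 total RNA reads. Other genes of specific and gelatinase granules took 11.8 and 1.69, and T cell genes 43.4 and 42.5. The contrast of 0 against 8 g/kg was known when the members were chosen, so nothing is read from the ranks at 0 g/kg.

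**Figure D4:**
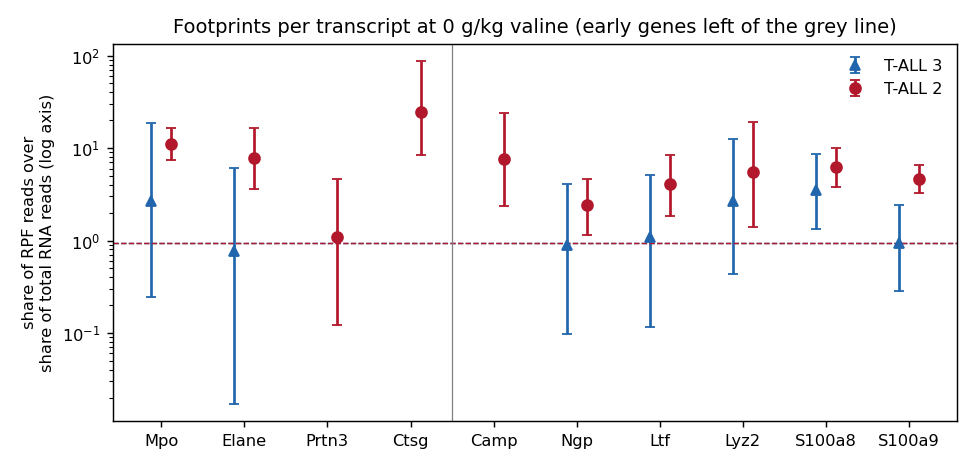
Share of RPF reads over share of total RNA reads for each gene at 0 g/kg valine (log axis), with triangles for T-ALL 3, circles for T-ALL 2, bars for 95% exact intervals and dashed lines at the median gene of each T-ALL. In T-ALL 2 all genes but Prtn3 lie above the line with their whole interval, and in T-ALL 3 only S100a8 does; genes with 0 reads in a fraction of T-ALL 3 have no symbol.

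Over all 8 pairs of libraries the same measure was tested with limma, as log2(RPF + 0.5) minus log2(total + 0.5) centred on the median gene of each pair. Of 9361 genes 1041 passed at an adjusted p of 0.05 (11.1%), 704 higher (7.52%) and 337 lower (3.6%) than the median gene. Of the members 1 of 10 passed, Ctsg, at 1.62 ± 0.36 (SE; adjusted p = 0.0358, limma), and nothing is read from that call. Ctsg was in the test only through the 0 g/kg libraries of total RNA, and without the pairs at 0 g/kg its value was 0.61 ± 0.46 (adjusted p = 0.429, limma). It had 0 reads in both fractions in 4 pairs, whose values come from the centring alone, and it also lost the call with a pseudocount of 0.1, with no centring, and when the 2 pairs of any other diet were left out. Mpo had 1.53 ± 0.60 (adjusted p = 0.138, limma) and S100a9 -1.72 ± 0.68 (adjusted p = 0.140, limma), and neither passed. The difference between 0.4 and 0.8 g/kg in this measure passed for 0 of 9361 genes (0%), with 318 at an unadjusted p under 0.05 (3.4%), and for 0 members.

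The diets at 0.4 and 0.8 g/kg were compared directly, because neither of them was part of the contrast of 0 against 8 g/kg. In RPF limma called 0 of 9718 genes (0%) and 0 of 10 members, with 310 genes (3.19%) and 0 members at an unadjusted p under 0.05. In total RNA it called 0 of 10054 genes (0%) and 0 members, with 315 genes (3.13%) and 2 members, Ngp and Prtn3, at an unadjusted p under 0.05. Prtn3 was in that test only through the 0 g/kg libraries, and had 3 reads at 0.4 g/kg against 0 at 0.8 g/kg. Ngp had a log2 difference of 4.16 ± 0.97 (SE, adjusted p = 1 by limma) and Prtn3 one of 2.16 ± 0.86 (adjusted p = 1 by limma). Both libraries at 0.4 g/kg exceeded both at 0.8 g/kg for 0 members in RPF, against 10.7% of genes, and for 3 members in total RNA (Ngp, Prtn3 and Lyz2), against 16.1% of genes. The median difference of the members was 0.52 in RPF and 1.16 in total RNA, where that of all genes was -0.17 and 0.02. Like Prtn3, the members Mpo, Ctsg, Camp and Ltf entered the total RNA median only through the 0 g/kg libraries. Pooled total RNA counts, with the 0.4 g/kg diet first, were 1 and 0 for Ctsg, 2 and 0 for Camp, and 5 and 4 for Mpo. The size of that median thus depends on the added 0.5, and nothing is read from it. When the library of T-ALL 2 at 0.8 g/kg was left out, 27 genes passed in total RNA, among them S100a9 at 5.52 ± 0.51 (adjusted p = 0.0172, limma), against 2.61 ± 1.45 with all libraries. In that fit 0.8 g/kg is the T-ALL 3 library alone, in which S100a9 had 0 reads, and the spread comes from the other diets, so the call has no replicate check at 0.8 g/kg.

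T-ALL 3 and T-ALL 2 were compared within diets over all 8 libraries of a fraction. Limma called 0 of 9718 genes in RPF (0%) and 0 of 10054 in total RNA (0%), with 525 (5.4%) and 756 (7.52%) genes at an unadjusted p under 0.05, and no member passed. The members' log2 differences, T-ALL 3 minus T-ALL 2, ran from -3.38 to 1.61 in RPF and from -1.38 to 0.72 in total RNA. S100a9 in RPF had -3.11 ± 1.04 (SE, adjusted p = 0.820 by limma) and was the only member at an unadjusted p under 0.05. With voom on the recovered reads 27 of 9718 genes passed in RPF, among them Mpo at -2.58 ± 0.61 (SE, adjusted p = 0.0211 by limma with voom). Mpo had 2 and 63 RPF reads at 0 g/kg in T-ALL 3 and T-ALL 2. It had 0 and 4 at 0.4 g/kg, 2 and 4 at 0.8 g/kg, and 0 in both controls. The voom fit was not run without 0 g/kg, so nothing is read from that call. In total RNA 63 of 10054 genes passed with voom, with no member among them.

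Other genes of neutrophils were described from lists drawn up with these results known. Of 10 genes of specific and gelatinase granules in the table, 8 of the 9 that passed the filter in RPF were higher at 0 than at 8 g/kg, with a median log2 change of 3.17. In total RNA 7 of 7 were higher, with a median of 2.51. Of all genes tested 53.8% were higher in RPF and 45.9% in total RNA. Several of the listed genes, among them Lcn2, Cd177 and Hp, passed the total RNA filter only through the 0 g/kg libraries. Lcn2 did so in RPF as well. Their direction was thus set by the filter, and nothing is read from these counts. Chil3, a chitinase-like protein made by mouse neutrophils and macrophages, had 3 and 49 RPF reads at 0 g/kg in T-ALL 3 and T-ALL 2, against 1 and 0 at 8 g/kg. Its total RNA reads were 11 and 57 at 0 g/kg, against 2 and 4 at 8 g/kg. Lcn2, the iron-scavenging lipocalin, had 8.77 and 20.2 FPKM in total RNA at 0 g/kg, against 2.83 and 1.27 at 8 g/kg. Mmp9, the enzyme of gelatinase granules, had 12.1 and 3.89 FPKM, against 2.86 and 0.275. In total RNA all 3 of these genes were thus higher at 0 than at 8 g/kg in both T-ALLs, and so was Itgam, the integrin CD11b, with 3.09 and 1.98 FPKM, against 0.553 and 0.934 (the first of 2 entries under this symbol).

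Of the other azurophil genes past the filter, 4 of 4 were higher at 0 than at 8 g/kg in RPF, with a median log2 change of 3.08, where 53.8% of all genes were higher. Serpinb1a and Hdc were among these 4 only through the 0 g/kg libraries, so nothing is read from that count. Serpinb1a passed the total RNA filter in the same way. The same 4 were higher at 0.4 g/kg, with a median of 2.97, where 52.6% of all genes were higher. The summed RPF share of this list was 0.937 ± 0.611 per 10000 for 0 g/kg, 1.11 ± 0.363 for 0.4 g/kg and 1.05 ± 0.110 for 0.8 g/kg. The controls had 0.140 ± 0.198, from 2 reads (SD, n = 2 each). At 0 against 8 g/kg 1 of 3 was higher in total RNA, with a median of -0.11, where 45.9% of all genes were higher. Ctsc, the protease that activates the serine proteases of azurophil granules and is also expressed outside neutrophils, had 11.2 and 11.0 FPKM in total RNA at 0 g/kg in T-ALL 3 and T-ALL 2, against 15.3 and 9.51 at 8 g/kg. Prss57, a serine protease of azurophil granules, had 5.09 and 5.98 FPKM, against 5.01 and 7.70. Serpinb1a, which inhibits elastase and cathepsin G, had 3 and 5 reads at 0 g/kg, against 0 in both controls.

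Receptors and other genes of mature neutrophils were near the limit of detection. Of 21 such genes 8 were in the table, and together they took 0.685 ± 0.791 of 10000 RPF reads at 0 g/kg (SD, n = 2), against 0 at 8 g/kg. In total RNA they took 0.212 ± 0.102 at 0 g/kg, against 0.0611 ± 0.0362 at 8 g/kg. Of 3 past the filter in total RNA 2 were higher and 1 was lower, where 45.9% of all genes were higher. Not all 3 passed the filter without the 0 g/kg libraries. Padi4, the enzyme that turns histone arginines into citrulline and that had most reads of this list, had 0 and 5 total RNA reads at 0 g/kg in T-ALL 3 and T-ALL 2, against 2 and 8 at 8 g/kg. Csf3r, the receptor for granulocyte colony-stimulating factor, had 5 and 5 total RNA reads at 0 g/kg in T-ALL 3 and T-ALL 2, against 0 and 1 at 8 g/kg, and 0 in all RPF libraries. Retnlg, a resistin-like protein of mature neutrophils, had 1 and 7 RPF reads at 0 g/kg, against 0 in the other 6 libraries.

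Regulators of granulocytes were measured in few reads. Spi1, which encodes PU.1, had 0 and 4 total RNA reads at 0 g/kg in T-ALL 3 and T-ALL 2, against 0 in both controls, and Cebpa had 1 and 0, against 0. Cebpb, also expressed in many other cells, had 54.5 and 17.5 FPKM in total RNA at 0 g/kg, against 12.9 and 11.0 at 8 g/kg. Gfi1, which lymphoid cells express as well, had 11.8 and 12.96 FPKM, against 19.9 and 13.8. Of the phagocyte oxidase, the widely expressed subunit gene Cyba had 153 and 159 FPKM in total RNA at 0 g/kg, against 130 and 149 at 8 g/kg. Cybb, the catalytic subunit gene, had 1 and 6 reads, against 0 and 1.

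Markers of other blood cells were read in the same libraries, and their part in the result was not tested. Erythroid genes were lower at 0 than at 8 g/kg for 8 of 8 past the filter in each fraction. Of all genes tested, 4197 of 9718 were lower in RPF and 5432 of 10054 in total RNA. In each fraction some of the erythroid genes passed the filter only through the 8 g/kg libraries. Median log2 changes of the erythroid genes were -2.28 in RPF and -2.72 in total RNA. Their summed share over 13 genes ranged over the 2 libraries from 0.498 to 2.91 per 10000 RPF reads at 0 g/kg, against 4.78 to 17.6 at 8 g/kg, and from 0.270 to 0.444 per 10000 total RNA reads, against 1.80 to 4.48. Macrophage and monocyte genes, 12 in the table, ranged from 1.52 to 3.24 in RPF, against 2.39 to 4.48, and from 0.326 to 0.374 in total RNA, against 0.268 to 0.295. B cell genes, 4 in the table, ranged from 0.884 to 1.49 in RPF, against 0.140 to 1.19, and from 0.681 to 0.794 in total RNA, against 0.0945 to 0.229; Cd79b among them had 0 reads in all total RNA libraries.

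Eosinophil and mast cell or basophil genes were at or near 0. Prg2, the eosinophil major basic protein, had 0 and 7 RPF reads at 0 g/kg in T-ALL 3 and T-ALL 2, against 0 in both controls. The mast cell protease gene Cpa3 had 4 and 3 total RNA reads at 0 g/kg, against 2 and 0 at 8 g/kg. Of 10000 RPF reads T cell genes took 44.5 ± 1.54 at 0 g/kg, against 46.3 ± 7.63 at 8 g/kg, and of 10000 total RNA reads 41.2 ± 1.82, against 45.6 ± 9.92 (SD, n = 2 each).

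The members followed each other across libraries. The Pearson correlation of each gene with the mean log2(FPKM + 0.5) of the other 9 ran from 0.43 (Camp) to 0.91 (Ctsg) over the 8 RPF libraries, and from 0.65 (Ctsg) to 0.98 (Prtn3) over the 8 total RNA libraries. Among 10044 other genes the pattern most like the members' mean in total RNA was that of C3, the central complement component, with r = 0.97, followed by Zfp575, Samsn1, Alms1, Prkdc, Ppp1r15a, Hp, Cd177, Spice1 and Chil3. Of these 10 genes Hp, Cd177 and Chil3 belong to the granule lists, and their r was 0.72, 0.61 and 0.77 in RPF and 0.94, 0.94 and 0.94 in total RNA. C3 had 33 total RNA reads at 0 g/kg and 15 in the other 6 libraries, with r = 0.53 in RPF. In contrast Zfp575 and Samsn1 had r = -0.22 and -0.06 in RPF. These correlations describe 8 libraries of unequal depth, include the pair at 0 g/kg, and carry no p.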

How the data were processed

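Total RNA and RPF were measured in 16 libraries. The authors deposited FPKM values per gene and library, with replicates apart. Per the submitters' processing notes, the builds mm10 and GRCm38 were used with edgeR 3.14.0, STAR 2.5.0c, Bowtie2 2.3.4 and cutadapt 1.18. How reads were counted and FPKM computed is not given in these sources. The members, lists and tests were chosen with earlier results of these data known. Members were matched by symbol, and 7 rows of the table had none.

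In every library the deposited FPKM values were whole multiples of 1 read over gene length. Reads were recovered from these steps, which gave whole reads for 100% of 149988 non-zero values (tolerance 0.02, largest distance 9.04e-06). A count of 0 allows up to 3 reads, which is 0.00146% to 0.00717% of the reads in RPF libraries and 0.000236% to 0.000823% in total RNA libraries. Reads are not independent molecules.

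Tests used limma 3.58.1 (R 4.3.3) on log2(FPKM + 0.5) with trended moderation, over genes with a mean of at least 1 FPKM in the 8 libraries of a fraction, diet as a factor and Benjamini-Hochberg adjustment at 0.05, two-sided. Exact tests of 2 against 2 libraries cannot go below p = 0.333 and were not run. Tested on simulated data, the fit for 0.4 against 0.8 g/kg called 99% of changes of 3 log2 units in total RNA (9955 genes), 43% in RPF (9674 genes) and 0% in RPF per total RNA (9238 genes). For T-ALL 3 against T-ALL 2 it called 65% in RPF (9629 genes). The changes were placed only in genes with FPKM well above the filter in both fractions. The spread between libraries was set rather than taken from the data. Most members lay below that FPKM level in total RNA, so these rates were not measured for genes like them.

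All 10 members are named. Of each list the 4 genes with most total RNA reads could be named, with any that passed a test, as could the 10 genes most like the members. Of the list genes, Vcam1, Hbb-bs and Bcl11b passed the test of mean RPF per total RNA, at 2.76 ± 0.19, 2.44 ± 0.22 and 1.09 ± 0.18 (SE; adjusted p = 0.0035, 0.00511 and 0.0152, limma). Intervals were computed with scipy 1.17.1.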

Additional observations from a re-analysis of the deposited data

Results flagged for a closer look

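Of 60 changes of a member against 8 g/kg, 4 went in opposite directions in T-ALL 3 and T-ALL 2; none of these differences was tested, and each rests on few reads. Elane at 0.8 g/kg in total RNA had a log2 change of -1.93 in T-ALL 3 and 1.84 in T-ALL 2. Ctsg at 0.4 g/kg in total RNA had 1.97 in T-ALL 3 and -1.46 in T-ALL 2. S100a8 at 0.8 g/kg in RPF had -6.65 in T-ALL 3 and 4.33 in T-ALL 2. S100a9 at 0.8 g/kg in total RNA had -5.52 in T-ALL 3 and 0.99 in T-ALL 2, where the T-ALL 3 library held 0 reads.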

How the results depend on the processing

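Precision is limited by depth: outside 0 g/kg the members had 31 RPF reads in 6 libraries. In total RNA at 0.4 against 0.8 g/kg, leaving out 1 library gave 0 to 27 genes and 0 to 1 members; RPF and RPF per total RNA at these diets gave 0 under every alternative run. With the replicate block these 3 comparisons called 0 genes and 0 members, and the numbers were not taken to pair the samples, since not every correlation between deviations of same-numbered libraries was over 0.1: they ran from -0.016 to 0.068 in RPF, with 0 of 6 over 0.1, and from -0.040 to 0.25 in total RNA, with 4 of 6 over 0.1. For T-ALL 3 against T-ALL 2, a pseudocount of 2 called 1 gene in total RNA, leaving out 1 diet 0 to 5, and voom 63; in RPF voom called 27 genes and 1 member. For mean RPF per total RNA, leaving out 1 diet gave 1 to 463 genes and 0 members, while 0 members passed with a pseudocount of 0.1, 2 with one of 2 (Ctsg and Mpo) and 0 with no centring. Without S100a8 and S100a9 the summed share at 8 g/kg was 0.189 per 10000 in RPF and 0.0453 in total RNA. At 0 g/kg the early share was then 36.4% in T-ALL 3 and 72.3% in T-ALL 2 in RPF, and 29.8% and 50.6% in total RNA. By FPKM it was 22.5% in RPF and 14.5% in total RNA in T-ALL 2. Without either T-ALL the summed share at 0 g/kg was 3.16 to 26.5 per 10000 in RPF and 2.10 to 4.47 in total RNA. The ratio of shares at 0 over 8 g/kg, with 1 library at 0 g/kg, was 8.94 to 75.1 in RPF and 13.9 to 29.5 in total RNA. The counts of members above the other 6 libraries or both controls, recomputed with 1 library at 0 g/kg (chosen after seeing the data), ran from 3 to 10 in RPF. The causes were not tested. In total RNA those counts were 9 to 10. Of the values for single genes, 260 recomputed ones stayed within the spread or kept their call, and 23 moved by more than the spread. Another 6 lost the call (all Ctsg), 1 gained it (Mpo), and no tested difference changed direction. For changes against 8 g/kg the spread was the SD of the 2 T-ALLs. Leaving out 1 T-ALL could not move a value by more than that, so these checks are no evidence of stability.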
